A study of Mus musculus with 8 samples.

Results

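The genes described here are 10 genes of the ATF4 stress response and of the restraint of mTOR: Atf4, Ddit3, Trib3, Chac1, Asns, Psat1, Phgdh, Mthfd2, Ddit4 and Sesn2. They were chosen by name, with earlier results of these data known. Each was read from the array probe set that the platform annotation assigns to that gene alone, and all 10 had such a probe set, among 19936 genes tested. Values are the deposited log2 values, so a difference of 1 is a doubling.

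The study measured whole-kidney RNA of female mice of a mixed C57BL/6 and SV127 background on 8 Affymetrix mouse arrays. In the group labelled mutant, 4 mice carried Pax8-rtTA, LC-1 and floxed Vhl. Together Pax8-rtTA and LC-1 form a doxycycline-inducible Cre system directed at tubule epithelium, so the other cells of the kidney are not its target. The group labelled control held 4 littermates, whose alleles the labels do not list. From the age of 3 weeks both groups were given 5% sucrose water with 0.2 mg/ml doxycycline, which lasted 2 weeks. Plain water followed for 1 week, and the kidneys were taken at 6 weeks.

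When amino acids run short or unfolded proteins collect in the endoplasmic reticulum, kinases phosphorylate the initiation factor eIF2, general translation slows and translation of Atf4 mRNA increases. The ATF4 protein then activates genes for amino acid synthesis and uptake, and the stress genes Ddit3, Trib3 and Chac1. Because much of this control is translational, the level of Atf4 mRNA is not a reading of ATF4 activity. Ddit4 and Sesn2 encode REDD1 and sestrin 2, stress-induced proteins that restrain the growth kinase complex mTORC1. Ddit4 is also a known target of hypoxia-inducible factor (HIF), whose alpha subunits the Vhl protein marks for degradation. The kidney is a site of serine synthesis, which begins with the enzymes encoded by Phgdh and Psat1.

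The targeted gene and the HIF response ran against the labels. Vhl read 8.25, 8.32, 8.46 and 8.33 in the mutant-labelled arrays and 8.01, 7.99, 7.96 and 8.22 in the control-labelled ones. It was thus higher in mutant-labelled kidneys (log2 difference 0.29, limma adjusted p = 0.0387, and 0.0558 with the replicate number as a block). Leaving out any 1 of mutant arrays 2 to 4 or of control arrays 1 to 3 ended that call too, with limma-adjusted p-values between 0.0785 and 0.114. Where on the transcript its probes lie is not known here. The HIF-induced genes Egln3, Car9, Pdk1, Adm and Slc2a1 were lower in the mutant-labelled arrays, by log2 differences of -2.96, -2.88, -1.59, -1.78 and -0.73 (limma adjusted p of 0.000523 or less for each). Directions below therefore compare the labels alone and cannot be read as effects of losing Vhl. As a check of the tissue, the 8 markers of proximal tubule had a mean log2 value of 12.2 to 12.8 on each array.

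Of the 10 genes, 1 passed the test. Ddit4 was lower in the mutant-labelled arrays, and the other 9 were not called. Across all genes tested 7.23% were called and 4.64% were called as lower. A count of 1 in 10 is near those shares. The log2 difference was below 0 for 8 of the 10 genes, against 41.9% of all genes, and the median over the 10 was -0.12, against 0.03 over all genes. The sign of 3 of the 10, Psat1, Trib3 and Ddit3, turned when some arrays were left out.

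**Figure D1:**
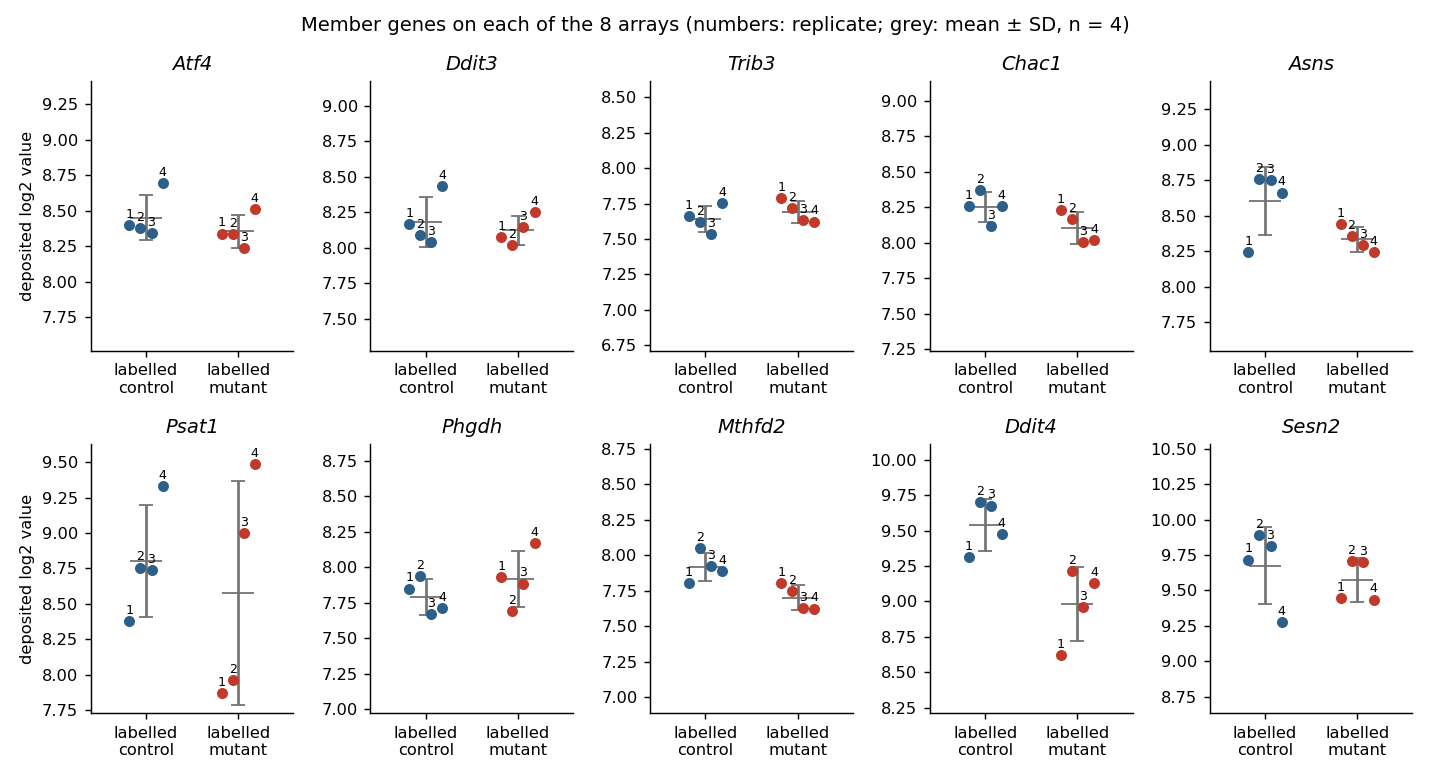
Deposited log2 value (vertical axis, the same span in every panel) of each of the 10 genes on the 4 control-labelled arrays (blue) and the 4 labelled mutant (red), with replicate numbers beside the points and the mean ± SD in grey. For Ddit4 and Mthfd2 every array labelled mutant lies below every array labelled control, and Psat1 spreads most, from 7.87 to 9.48 in the mutant-labelled arrays.

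Ddit4, the gene of the mTORC1 inhibitor REDD1, was the only member called. It read 8.62, 9.21, 8.96 and 9.13 in the mutant-labelled arrays and 9.31, 9.70, 9.68 and 9.47 in the control-labelled ones. All 4 mutant-labelled arrays lay below all 4 labelled control, and mutant array 1 was the lowest. The group means were 8.98 ± 0.261 and 9.54 ± 0.182 (SD, n = 4 each), which made Ddit4 1.47-fold lower in the mutant-labelled arrays. The log2 difference was -0.56 with a standard error of 0.131 and a 95% interval of -0.85 to -0.26 (limma adjusted p = 0.0312). The exact two-sided permutation p was 0.0286, the smallest that 4 against 4 arrays allow. Between arrays of the same number Ddit4 was lower in 4 of 4, by 0.34 to 0.71. Both follow from the lack of overlap and add nothing to it. The groups did not overlap in either direction for 14.8% of all genes, and 8.2% had the mutant-labelled arrays below. Over all genes, 293 had a lower log2 difference than Ddit4, and 2.11% had a difference at least as large in either direction.

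The call on Ddit4 depended on single arrays. It was lost without mutant array 3 and without control array 2, 3 or 4 (limma adjusted p = 0.0663, 0.0926, 0.0951 and 0.0517). It was lost as well on dropping mutant arrays 1 and 2 (0.0562) or 3 and 4 (0.0609), and when all 35556 probe sets were tested in place of 1 per gene (0.0657). With the replicate number as a block the adjusted p was 0.00856. The log2 difference itself stayed between -0.63 and -0.44 over 18 alternatives.

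**Figure D2:**
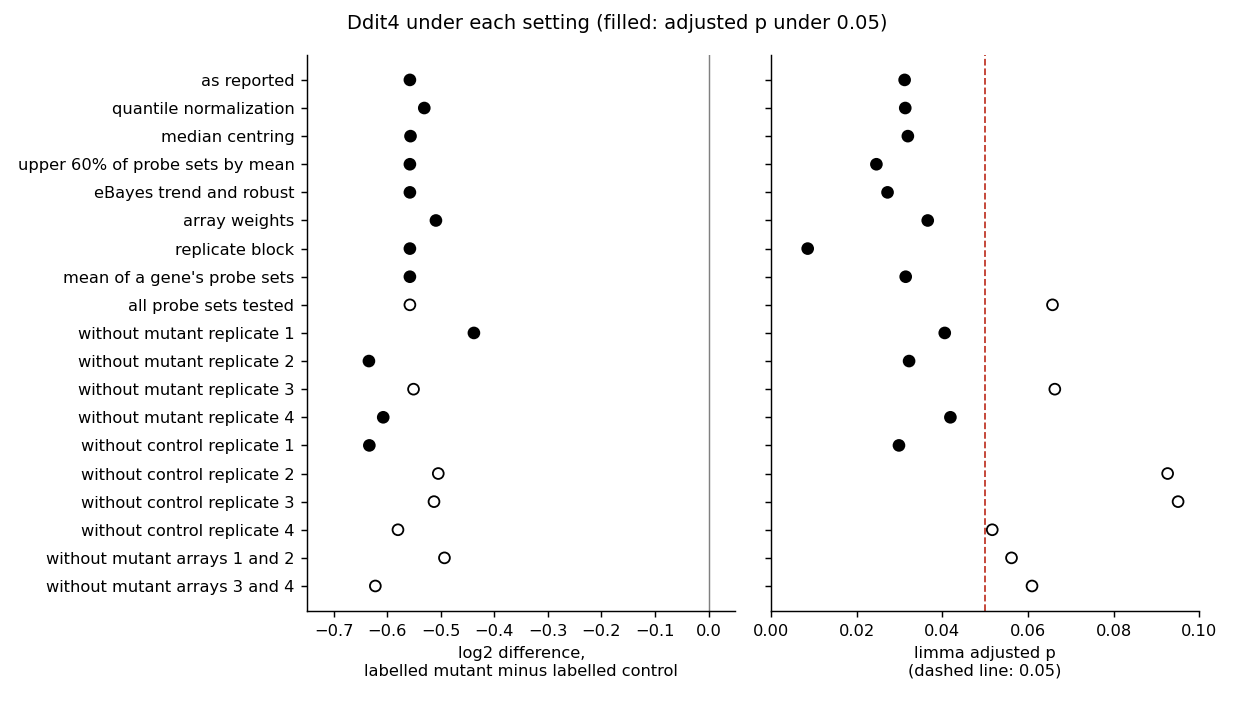
Ddit4 under each setting (rows): log2 difference of labelled mutant minus labelled control on the left, limma adjusted p on the right, with the threshold of 0.05 dashed and settings that called the gene filled. The difference stays between -0.63 and -0.44, while the adjusted p lies above the threshold in 7 of 18 alternatives.

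Ddit4 went the same way as the HIF-induced genes read above, and its promoter is shown for that reason, a choice made after its values were seen. The 250 bases before its RefSeq start site (GRCm38.p6, chr10:59951771-59952020, minus strand) follow, 5′ to 3′, with each match to ACGTG or GCGTG, the core of the hypoxia response element, in capitals:
Ddit4: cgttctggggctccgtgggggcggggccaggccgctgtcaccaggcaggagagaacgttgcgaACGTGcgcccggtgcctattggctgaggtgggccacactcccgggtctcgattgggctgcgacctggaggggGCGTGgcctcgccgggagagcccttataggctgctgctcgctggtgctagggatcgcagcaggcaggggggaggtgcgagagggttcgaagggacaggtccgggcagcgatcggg
The matches begin 187 and 115 bases before the start site. Searched on both strands over 250 bases before to 50 after the start, this short core was present in 43.8% of 32851 mouse promoters. It was present in 8 of the 10 genes, all but Mthfd2 and Sesn2, and of those 8 only Ddit4 was called. No match lay within the palindrome CACGTG, which other factors bind. A match is a description of letters and not a site of binding, and the part of HIF in the difference of Ddit4 was not tested.

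Markers of kidney cell types also differed between the labelled groups, some lower and some higher in the mutant-labelled arrays. The 7 endothelial markers were all called lower in the mutant-labelled arrays. Their summed log2 value ran from 69.4 to 70.2 there and from 74.2 to 75.6 in the control-labelled arrays. The 5 measured markers of cycling cells were called lower too, with sums of 33.9 to 37.1 against 38.1 to 39.9, as were 4 of 5 pericyte and smooth muscle markers, with sums of 44.9 to 46.8 against 48.0 to 49.5. Of 8 proximal tubule markers 2 were called higher and 0 lower, with sums of 100.2 to 102.2 against 97.8 to 100.3. Of the other lists, 2 of 6 fibroblast, 1 of 3 podocyte and 1 of 2 erythroid markers were called lower. Called higher were 2 of 4 markers of the thick ascending limb, 1 of 3 of the distal convoluted tubule and 1 of 4 each of collecting duct principal and intercalated cells. Across all genes tested, 2.59% were called higher and 4.64% lower, and lists this short give coarse shares. Slc4a1, which was not called, was counted in both the intercalated and the erythroid list. Of the 7 macrophage, 6 lymphocyte and 3 adipocyte markers 0 were called by limma. With the replicate block 2 macrophage markers were called lower, Itgam and Cd68 (limma adjusted p = 0.0148 and 0.0334), and 1 more marker each of the thick ascending limb and the distal convoluted tubule was called higher, Slc12a1 and Slc12a3 (0.0456 and 0.0341). The part of these cell types in the difference of Ddit4 was not tested, and in whole-kidney RNA fewer cells of a type and less RNA per cell cannot be told apart.

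By Pearson's correlation over the 8 arrays, the named genes whose pattern was most like that of Ddit4 were S1pr1, Wfdc16 and Acer2 (r = 0.984 for each). S1pr1, the gene of a sphingosine-1-phosphate receptor abundant on endothelium, read 9.22 ± 0.239 in the mutant-labelled arrays and 9.88 ± 0.202 in the control-labelled ones (SD, n = 4 each). Wfdc16 read 7.98 ± 0.340 against 8.70 ± 0.313, and Acer2 10.42 ± 0.215 against 10.89 ± 0.227. S1pr1 and Wfdc16 were called lower (limma adjusted p = 0.0136 and 0.0448), and Acer2 was not called (0.0598). The arrays share the group difference, so a high r follows in part from it. It follows in part from the choice too, since these genes were picked for the highest r among all named genes over only 8 arrays.

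Sesn2, the gene of the leucine-sensing protein sestrin 2, did not pass the test. It read 9.45, 9.71, 9.70 and 9.44 in the mutant-labelled arrays and 9.72, 9.89, 9.81 and 9.28 in the control-labelled ones. The groups overlapped, and the lowest value of all 8 belonged to control array 4. The means were 9.57 ± 0.153 and 9.67 ± 0.273 (SD, n = 4 each). The log2 difference of -0.10 had a 95% interval of -0.39 to 0.19 (limma adjusted p = 0.685). A difference of up to 1.31-fold lower or 1.14-fold higher in the mutant-labelled arrays lies within that interval.

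Atf4 itself differed little between the groups. It read 8.34, 8.34, 8.24 and 8.51 in the mutant-labelled arrays and 8.40, 8.38, 8.34 and 8.69 in the control-labelled ones. The groups overlapped, and array 4 was the highest in both. The means were 8.36 ± 0.115 and 8.45 ± 0.162 (SD, n = 4 each), a log2 difference of -0.10 with a 95% interval of -0.29 to 0.10 (limma adjusted p = 0.562). The interval reaches 1.23-fold lower and 1.07-fold higher in the mutant-labelled arrays. Set against the control-labelled array of the same number, Atf4 was lower in 4 of 4, by 0.042 to 0.180, and with the replicate block it was not called (limma adjusted p = 0.271). Without control array 4 alone, the difference was -0.017. The named genes with the pattern most like that of Atf4 over the 8 arrays were Camsap1, Ube2g2 and Banp (Pearson's r = 0.976, 0.974 and 0.963), of which 0 were called. They too were picked for the highest r among all named genes.

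Ddit3, the gene of the stress transcription factor CHOP, followed the same order of arrays at number 4. It read 8.08, 8.02, 8.14 and 8.25 in the mutant-labelled arrays and 8.17, 8.09, 8.04 and 8.43 in the control-labelled ones. Array 4 was again the highest in both groups, and the groups overlapped. The log2 difference was -0.06 with a 95% interval of -0.26 to 0.14 (limma adjusted p = 0.730), and it turned to 0.023 without control array 4.

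Trib3, the gene of a pseudokinase that CHOP and ATF4 induce, was read between 7.54 and 7.79 on every array. Its values were 7.79, 7.72, 7.63 and 7.62 in the mutant-labelled arrays and 7.66, 7.62, 7.54 and 7.75 in the control-labelled ones. The groups overlapped in part, with mutant array 1 above and control arrays 2 and 3 below all arrays of the other group. Control array 2, at 7.619, lay just under mutant array 4, at 7.622. The log2 difference was 0.05 with a 95% interval of -0.09 to 0.19 (limma adjusted p = 0.694). This was the narrowest of the 10 intervals, and it reaches 1.14-fold higher.

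Chac1 encodes an enzyme that breaks down glutathione and is among the genes most responsive to ATF4. It read 8.23, 8.17, 8.01 and 8.02 in the mutant-labelled arrays and 8.26, 8.37, 8.12 and 8.26 in the control-labelled ones. Mutant arrays 1 and 2 overlapped control array 3. The log2 difference was -0.15 with a 95% interval of -0.31 to 0.02 (limma adjusted p = 0.277), and Chac1 was lower in 4 of 4 arrays set against their own number, by 0.029 to 0.240. Compared in the same way, Asns, Sesn2 and Ddit3 were lower in 3 of 4, Psat1 in 2, and Phgdh and Trib3 in 1.

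**Figure D3:**
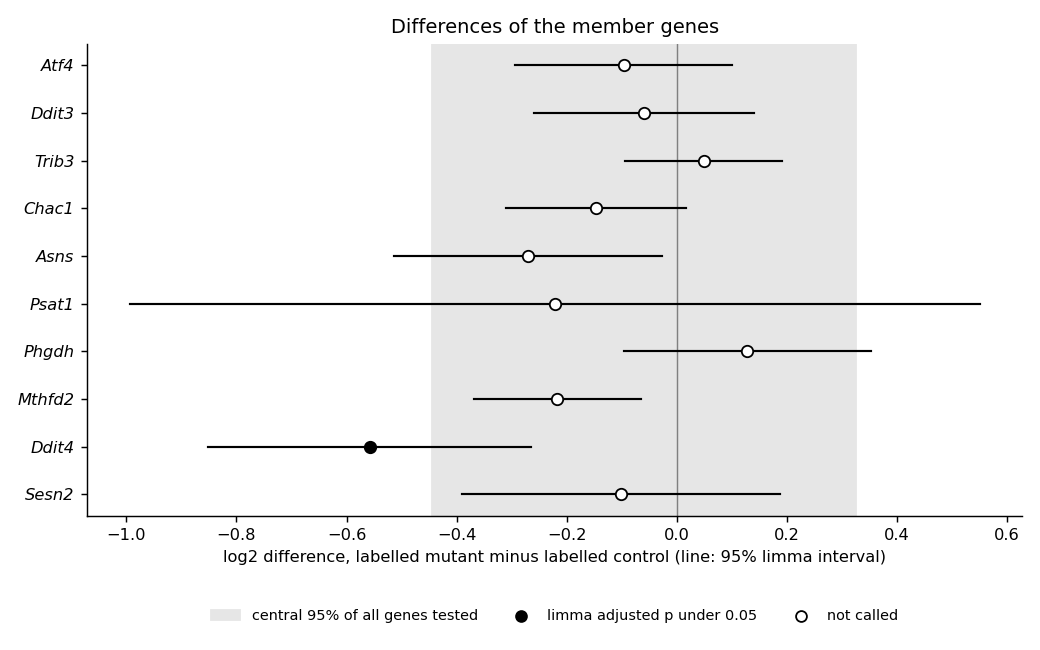
Log2 difference of labelled mutant minus labelled control for each of the 10 genes, with the 95% limma interval as a line and the central 95% of all 19936 genes (-0.44 to 0.33) shaded. Ddit4, the filled point, is the only member whose difference lies outside the shaded range.

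The members that make amino acids and one-carbon units were read next. Asns encodes asparagine synthetase, a classic ATF4 target. It read 8.44, 8.36, 8.29 and 8.24 in the mutant-labelled arrays and 8.25, 8.76, 8.75 and 8.66 in the control-labelled ones. Control array 1 lay with the mutant-labelled arrays, and the other control arrays lay above all of them. The means were 8.33 ± 0.0859 and 8.60 ± 0.242 (SD, n = 4 each). The log2 difference was -0.27 with a 95% interval of -0.51 to -0.03, and it did not pass after adjustment over all genes (limma adjusted p = 0.186). Without control array 1 it was -0.39 and passed (limma adjusted p = 0.0121).

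The promoters of Asns and Chac1 are shown because they hold the element that ATF4 and C/EBP factors share, written TGATGNAA and given in capitals. For Asns, the 130 bases before the start site are on GRCm38.p6 at chr6:7693210-7693339, minus strand. For Chac1, the stretch from 220 to 111 bases before the start site is at chr2:119351022-119351131, plus strand, and the element lies on the opposite strand, so that the capitals are its reverse complement:
Asns: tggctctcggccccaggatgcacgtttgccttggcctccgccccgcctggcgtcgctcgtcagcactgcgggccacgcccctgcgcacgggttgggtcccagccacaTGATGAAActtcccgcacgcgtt
Chac1: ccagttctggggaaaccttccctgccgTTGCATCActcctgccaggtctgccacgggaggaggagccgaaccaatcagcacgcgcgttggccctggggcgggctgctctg
The element begins 23 bases before the start in Asns and 193 before it in Chac1. Over 250 bases before to 50 after the start, on both strands, it was found in 3 of the 10 genes, Trib3 being the other, and in 3.97% of the 32851 promoters. Sequences and starts are those of RefSeq, and Psat1 had a pair of start sites there. Ddit4 held no match to this element in the window.

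Mthfd2, the gene of a mitochondrial folate enzyme, was the second member whose groups did not overlap. It read 7.80, 7.75, 7.63 and 7.62 in the mutant-labelled arrays and 7.803, 8.05, 7.93 and 7.89 in the control-labelled ones. Mutant array 1 and control array 1 were nearly equal, at 7.801 and 7.803, and within the other numbers the mutant-labelled array was lower by 0.27 to 0.30. The means were 7.70 ± 0.0886 and 7.92 ± 0.101 (SD, n = 4 each), and the log2 difference was -0.22 with a 95% interval of -0.37 to -0.06. After adjustment over all genes it was not called (limma adjusted p = 0.0932), nor under any of the 18 alternatives (0.0635 to 0.267). With Ddit4 this made 2 of 10 genes whose mutant-labelled arrays all lay below the control-labelled arrays, where 8.2% of all genes did so. The reverse order was seen in 0 of the 10, against 6.57% of all genes.

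Phgdh and Psat1 encode the enzymes of the opening steps of serine synthesis. Phgdh read 7.93, 7.69, 7.89 and 8.17 in the mutant-labelled arrays and 7.85, 7.94, 7.67 and 7.71 in the control-labelled ones. The groups overlapped, and the log2 difference of 0.13 had a 95% interval of -0.10 to 0.35 (limma adjusted p = 0.492). Another probe set names Phgdh together with Gm6756 and was not used. It read 8.31 ± 0.0759 against 8.36 ± 0.0531 (SD, n = 4 each).

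Psat1 varied more within the groups than any other of the 10. It read 7.87, 7.97, 8.998 and 9.48 in the mutant-labelled arrays and 8.38, 8.76, 8.74 and 9.33 in the control-labelled ones. Mutant arrays 1 and 2 were the lowest of the 8, mutant array 4 and control array 4 the highest. The SD was 0.789 in the mutant-labelled arrays and 0.394 in the control-labelled ones, and 99.7% of all genes had a smaller SD within groups. The log2 difference of -0.22 had a 95% interval of -0.99 to 0.55 (limma adjusted p = 0.743), so that a change of 1.99-fold lower or 1.46-fold higher lies within it. It was 0.014 without mutant array 1, 0.44 without mutant arrays 1 and 2 (limma adjusted p = 0.422), and -0.88 without mutant arrays 3 and 4 (0.0467).

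Beyond the 10 genes, 137 other genes of the surrounding pathways were read from 8 lists. Of these, 6 were called higher and 13 lower in the mutant-labelled arrays, where 2.59% of all genes were called higher and 4.64% lower. Without mutant array 2 the counts were 5 and 7, without control array 3 they were 5 and 8, and without mutant arrays 1 and 2 they were 6 and 5. The median log2 difference over the 137 genes was -0.01. A limma unadjusted p under 0.05 was found for 21.8% of all genes. By list it was found for 4 of 14 kinase and phosphatase genes, 3 of 12 stress factor genes and 7 of 15 one-carbon genes. It was found for 3 of 12 transporter, 7 of 18 synthetase and 9 of 22 endoplasmic reticulum genes. On the mTORC1 side it was found for 3 of 14 components and 5 of 30 sensing and brake genes.

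**Figure D4:**
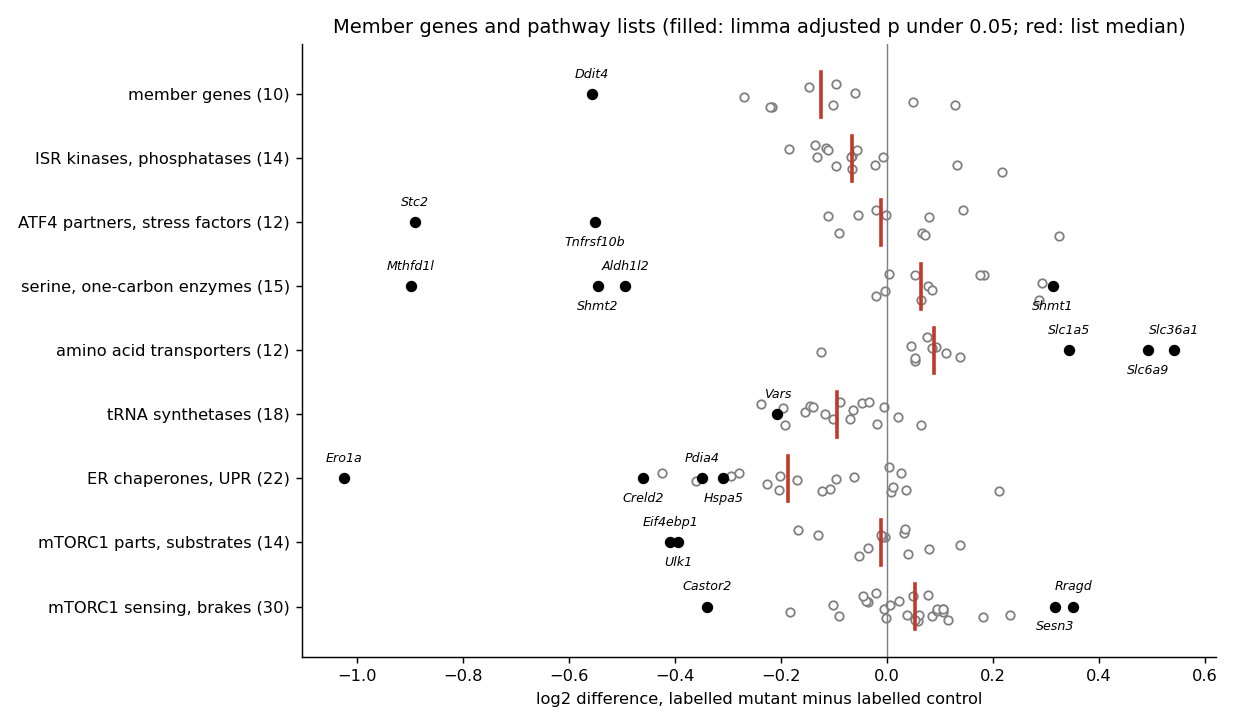
Log2 difference of labelled mutant minus labelled control for each measured gene of the 10 members and the 8 pathway lists (rows, number of genes in brackets), with genes at a limma adjusted p under 0.05 filled and named and the list median in red. ISR stands for integrated stress response and UPR for unfolded protein response. The largest differences are those of Ero1a, Mthfd1l and Stc2, and the list medians lie between -0.19 and 0.09.

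Upstream of Atf4, none of 14 measured kinase, phosphatase and eIF2 regulator genes was called by limma, and 4 had an unadjusted p under 0.05, which 21.8% of all genes had. Eif2b1 was called lower on the upper 60% of probe sets by mean and with the trended robust fit (limma adjusted p = 0.0357 and 0.0473), and Impact was called higher without control array 2 (0.0479). The difference was largest for Impact, an inhibitor of the amino acid-sensing kinase GCN2 (log2 difference 0.22, limma adjusted p = 0.126). The list median was -0.07. Among 12 measured partners of ATF4 and other stress factor genes, 2 were called lower and 0 higher. Stc2, which encodes stanniocalcin 2, fell 1.86-fold from 8.82 ± 0.0980 in the control-labelled arrays to 7.93 ± 0.0516 in the mutant-labelled ones (SD, n = 4 each; limma adjusted p = 4.02e-05). Tnfrsf10b, a death receptor gene that CHOP induces, fell 1.47-fold from 8.12 ± 0.192 to 7.57 ± 0.0496 (limma adjusted p = 0.00505). Without control array 4 the apoptosis gene Pmaip1 was called higher (limma adjusted p = 0.0483). The list median was -0.01. The fibroblast growth factor gene Fgf21, a hormone gene under ATF4, read 6.68 against 6.54 and was not called, and it was chosen after its values were seen.

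Among 15 measured serine, glycine and one-carbon genes, 3 were called lower and 1 higher. Mthfd1l, which encodes the mitochondrial formate-producing enzyme, fell 1.87-fold from 8.74 ± 0.151 to 7.84 ± 0.172 (SD, n = 4 each; limma adjusted p = 0.000787). Shmt2, the mitochondrial serine hydroxymethyltransferase gene, fell 1.46-fold from 11.23 ± 0.106 to 10.68 ± 0.251 (limma adjusted p = 0.0186). Aldh1l2, a mitochondrial folate dehydrogenase gene, fell 1.41-fold from 7.68 ± 0.267 to 7.19 ± 0.113 (limma adjusted p = 0.0370). Other mitochondrial members of the list were not called, with log2 differences of 0.29 for Amt, 0.17 for Gcsh, 0.08 for both Gldc and Dld and 0.06 for Mthfd2l, and they were named after their values were seen. The gene that rose was Shmt1, the cytosolic counterpart of Shmt2, from 9.84 ± 0.0295 to 10.15 ± 0.0671 (log2 difference 0.31, limma adjusted p = 0.00603), and it was named after its value was seen. The list median was 0.06. Shmt2 lost its call without mutant array 2 or control array 1 (limma adjusted p = 0.0599 and 0.0569). Aldh1l2 lost it on dropping any 1 of mutant arrays 1 to 3 and control arrays 2 and 3 (0.0740 to 0.107) and with the replicate block (0.0677), under which Amt, of the glycine cleavage system, was called higher (0.0444). The balance of the list turned with single arrays. Without mutant array 1 it was 3 higher and 2 lower, Amt and Cbs being added as higher (limma adjusted p = 0.0352 and 0.0215). Without mutant array 2 it was 1 higher and 1 lower, and without mutant arrays 1 and 2 it was 2 higher and 1 lower.

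Of 12 amino acid transporter genes under ATF4, 3 were called higher in the mutant-labelled arrays and 0 lower, with a median of 0.09. Slc36a1, which encodes a lysosomal and plasma membrane amino acid carrier, rose 1.46-fold (10.92 ± 0.0830 against 10.37 ± 0.0833, limma adjusted p = 0.00106). Slc6a9, a glycine transporter gene, rose 1.41-fold (10.28 ± 0.154 against 9.78 ± 0.118, limma adjusted p = 0.00814). Slc1a5, a glutamine transporter gene, rose 1.27-fold (9.99 ± 0.170 against 9.65 ± 0.0465; SD, n = 4 each; limma adjusted p = 0.0315). Dropping any 1 of mutant arrays 2 to 4 or of control arrays 1 to 3 ended the call on Slc1a5, at a limma adjusted p of 0.0644 to 0.0945.

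Of 18 measured cytosolic aminoacyl-tRNA synthetase genes, which charge transfer RNAs with amino acids, 1 was called. Vars, for valine, was 1.15-fold lower in mutant-labelled kidneys (9.26 ± 0.0623 against 9.46 ± 0.0412; SD, n = 4 each; limma adjusted p = 0.0418). Its call was lost with the replicate block (0.0716) and without any 1 of mutant arrays 2, 3 and 4 and the 4 control arrays (0.0658 to 0.106). The list median was -0.10. The log2 difference was below 0 for 16 of the 18 genes, against 41.9% of all genes. In the other lists it was below 0 for 12 of 14 kinase and phosphatase, 16 of 22 endoplasmic reticulum and 7 of 12 stress factor genes. It was so for 9 of 14 mTORC1 components, 10 of 30 sensing and brake, 5 of 15 one-carbon and 1 of 12 transporter genes. All mutant-labelled arrays lay below all control-labelled ones for 5 of the 18, against 24 of all 137 pathway genes and 8.2% of all genes.

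Among 22 genes of endoplasmic reticulum chaperones and the unfolded protein response, 4 were called lower and 0 higher, with a median of -0.19. Ero1a, the oxidase gene of disulfide formation, which is also a HIF target, fell 2.04-fold from 11.17 ± 0.168 to 10.14 ± 0.0536 (SD, n = 4 each; limma adjusted p = 0.000111). The secreted chaperone gene Creld2 and the disulfide isomerase gene Pdia4 were 1.38-fold and 1.27-fold lower (limma adjusted p = 0.0373 and 0.0201). The fourth gene was Hspa5, which encodes the main chaperone BiP and was named after its value was seen, 1.24-fold lower (0.0350). These last 3 calls were lost without some single arrays. For Creld2 they were mutant arrays 1 to 4 and control arrays 1 and 3 (0.0573 to 0.109), for Pdia4 mutant arrays 2 and 4 and control array 3 (0.0514 to 0.0626), and for Hspa5 mutant arrays 1, 2 and 4 and control arrays 1 and 3 (0.0666 to 0.0963). Quantile normalization ended the call on Hspa5 as well (0.0657). The number called lower was 1 on dropping mutant array 2, mutant array 4 or control array 3, and 2 on dropping array 1 of either group. It was 5 on dropping mutant array 3, where Dnajb11 and Pdia6 were called lower (limma adjusted p = 0.0478 and 0.0285). On dropping mutant array 1, Herpud1 was called higher (limma adjusted p = 0.0384). With the replicate block Hsp90b1 and Manf, also of this list, were called lower (0.0419 and 0.0289).

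On the mTORC1 side, 2 of 14 measured components and substrates were called lower and 0 higher. Eif4ebp1, the gene of a translation repressor that mTORC1 phosphorylates and ATF4 induces, was 1.33-fold lower in mutant-labelled kidneys (9.25 ± 0.0777 against 9.66 ± 0.121, limma adjusted p = 0.00718). Ulk1 encodes an autophagy kinase and was 1.31-fold lower, at 9.70 ± 0.141 against 10.09 ± 0.0478 (limma adjusted p = 0.00997), and its call was lost without mutant arrays 1 and 2 together (0.0518). The list median was -0.01. The kinase gene Mtor itself, named after its values were seen, read 10.92 against 10.93 and was not called.

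Of 30 genes of mTORC1 nutrient sensing or of brakes on mTORC1, 2 were called higher and 1 lower, with a median of 0.05. Not all of the 30 encode brakes, so the counts and the median are not those of brakes alone. Rragd, a Rag GTPase gene, was 1.28-fold higher in mutant-labelled kidneys (9.11 ± 0.0907 against 8.76 ± 0.0850, limma adjusted p = 0.0102). Sesn3, a paralog of Sesn2, was 1.25-fold higher (9.58 ± 0.134 against 9.27 ± 0.0839, limma adjusted p = 0.0323). Castor2, of the family of arginine sensors, was 1.27-fold lower (10.56 ± 0.128 against 10.90 ± 0.0361; SD, n = 4 each; limma adjusted p = 0.0144). The call on Sesn3 ended on dropping mutant array 1 or 3, or control array 1, 2 or 4 (0.0538 to 0.0860), and Rragd and Castor2 lost theirs without mutant arrays 1 and 2 together (0.0752 and 0.0737). Ddit4l, the paralog of Ddit4, read 8.67 against 8.61 and was not called. Sesn1, the other paralog of Sesn2, read 9.47 against 9.51 and was not called either. Both were named after their values were seen.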

How the data were processed

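The authors deposited 1 table of log2 values for 35556 probe sets on 8 arrays. Per the labels' protocols, RNA came from TRIzol extraction and an RNeasy clean-up, and biotinylated cRNA was made by the Affymetrix procedure. Only limma is named in the submitters' processing notes, with no version. For background correction, summarization, normalization and build the sources used here give nothing. Array medians ran from 7.55 to 7.58, and precision is limited by having 4 arrays a group. A log2 table holds no background reading, so no gene was called absent.

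Of the probe sets, 21789 named 1 gene, 1621 named several and 12146 were not listed. Current names (RefSeq, GRCm38.p6) were found for 21701 of the 21789 by Entrez identifier or accession. Where a gene had several, the one with the greatest mean over the 8 arrays stood for it, which left 19936 genes. Each of the 10 genes had a single such probe set. The 2 groups were compared over all genes in R 4.3.3, using lmFit and eBayes of limma 3.58.1 with 1 factor and two-sided tests. They were adjusted by the Benjamini-Hochberg method and called at an adjusted p under 0.05. A fold is 2 to the size of the log2 difference. The code was tested on simulated data.

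The 10 genes and the pathway lists were chosen with earlier results of these data known. All 10 were named, and from each list the 3 called genes with the largest difference, or the gene with the largest difference where none was called. The labels count 4 mice in each group. Replicate numbers in the labels run from 1 to 4 in each group. Taken over all genes, departures from the group mean had correlations of 0.138, 0.153, 0.295 and 0.175 for arrays with a shared number. For arrays of unlike number they ran from -0.193 to 0.111. The main fit used no pairing. Equal numbers were treated as pairs only in the replicate block and where arrays of the same number are compared. The labels do not state such a pairing. Alternatives were the replicate block, a threshold of 0.01, leaving out arrays, testing all probe sets or only the upper 60% by mean, averaging probe sets per gene, quantile normalization, median centring, weighting arrays, and a robust eBayes fit with a trend.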

Additional observations from a re-analysis of the deposited data

Results flagged for a closer look

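Control array 4 read 8.69 for Atf4, while the other 3 control-labelled arrays read 8.34 to 8.40. It was far from the others of its group by Dixon's criterion, with a gap to the nearest that made up 0.830 of the group's range, just over the critical value. The same screen was applied to both groups of 35 genes that the text names, 70 groups in all, and 1 was found; chance gives about 1 in 20.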

How the results depend on the processing

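Ddit4 kept its direction under all 18 alternatives. Its call was lost with all probe sets tested (-0.56) and on leaving out mutant arrays 1 and 2 (-0.49) or 3 and 4 (-0.62), and its difference ran from -0.63 to -0.44 when single arrays were left out. The number of the 10 genes called was 0 with all probe sets, at the threshold of 0.01 and without mutant arrays 1 and 2, and 0 to 2 without single arrays. Without mutant arrays 3 and 4 it was 1, which was then Psat1 and not Ddit4. Differences that were not called turned sign for Psat1 (0.44 without mutant arrays 1 and 2, and from -0.52 to 0.014 without single arrays), Ddit3 (0.016 without mutant arrays 1 and 2, and from -0.11 to 0.023 without single arrays) and Trib3 (-0.014 without mutant arrays 1 and 2). Psat1 passed at -0.88 without mutant arrays 3 and 4. Asns ran from -0.39 to -0.22 without single arrays and passed without control array 1. At the threshold of 0.01, 602 of all genes and 9 of the pathway genes were called, and without mutant arrays 1 and 2, 11 pathway genes. Without single arrays the counts ran from 902 to 1368 for all genes and from 12 to 18 for the pathway genes, against 1442 and 19. With the replicate block 1 of the 10 genes, 1657 of all genes and 20 pathway genes were called. Among the 10 genes, Vhl, the pathway genes and the cell type markers the block changed the calls of Vhl, Aldh1l2, Vars, Amt, Hsp90b1, Manf, Itgam, Cd68, Slc12a1 and Slc12a3 and no other. Fewer arrays also mean fewer degrees of freedom. The cause of each other change was not tested.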
